A study of Macaca mulatta with 12 samples.

Results

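Transcripts of 10 genes of the TNF and NF-kB system were measured in blood macrophages of rhesus macaques (Macaca mulatta): the cytokine TNF, the inhibitors TNFAIP3, NFKBIA, TNIP1 and TNIP2, the NF-kB subunits RELB, NFKB1 and NFKB2, and the TNF-induced genes TNFAIP6 and TRAF1. They were chosen by name, with earlier results of these data known. They are 10 of 32386 genes in the deposited count table, and all 10 were among the 11826 genes tested after the filter on low counts. The macrophages were sorted from blood as CD14+CD16-CD163+ cells of animals that had received their own mobilized CD34+ cells back after CRISPR/Cas9 treatment, a model of clonal hematopoiesis that the series title ties to mutant TET2. The 4 groups, of 3 libraries each, were Late ACT (19 months after transplant, kept 8 h with 100 ng/ml lipopolysaccharide, or LPS, and 20 ng/ml interferon-gamma), Late CTL (19 months, 8 h without these agents), Early ACT (4.5 months, with both agents) and Early CTL (4.5 months, without them). Every group comes from transplanted animals, and no library of unedited cells is among the 12. In the labels, the protocol states both agents for ACT, while the short treatment entry mentions only LPS.

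The sources used here state neither the age nor the number of the animals, nor the share of edited cells. No label says whether the libraries of a group are separate animals or separate wells of 250000 cells, so each p-value reflects the scatter among these libraries alone, and that scatter may be technical. Time after transplant and any difference between the 2 rounds of sampling, culture or library making cannot be told apart.

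TNF is an inflammatory cytokine that macrophages make soon after LPS reaches Toll-like receptor 4. Both LPS and TNF itself lead to activation of NF-kB, a family of transcription factors built from pairs of subunits (RELA, REL, RELB and the processed products of NFKB1 and NFKB2). NF-kB is held in the cytoplasm by IkB proteins such as the product of NFKBIA, and it induces several of its own inhibitors, among them NFKBIA and TNFAIP3 (A20, an enzyme that edits ubiquitin chains), which close a negative feedback loop. TNIP1 and TNIP2 encode adaptors that bind A20 and ubiquitin chains. TNFAIP6 encodes a secreted protein that binds hyaluronan and is known to dampen inflammation, and TRAF1 encodes an adaptor of TNF receptor family members.

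The library totals ran from 3910680 to 12972505 counts. The targeted gene TET2 had a mean level of 427 ± 13.4 CPM in Late ACT, 412 ± 3.71 in Late CTL, 322 ± 32.2 in Early ACT and 249 ± 7.29 in Early CTL (SD, n = 3 each), and a level of RNA does not show whether a coding sequence is edited. Early ACT library 1 stood apart: on the second principal component of the log2 CPM it lay at 61.5, against -1.49 and -1.79 for its group. Calls that turn on it are given with and without it for the 10 genes, and between the times for the named pathway genes. For stimulation and for the difference between responses, its effect on the other pathway genes is given only as counts. Of the fixed monocyte and macrophage markers all 9 were in the table, and their summed level, in CPM without TMM scaling, was 5458 to 5627 in Late ACT, 5943 to 6548 in Late CTL, 7818 to 8487 in Early ACT and 10439 to 10745 in Early CTL. CD14, by which the cells were sorted, averaged 1534 CPM in Late CTL and 2359 CPM in Early CTL, and CD163 averaged 597 CPM in Late CTL and 1301 CPM in Early CTL. LYZ made up most of the macrophage sum (3471 CPM in Late CTL and 5760 CPM in Early CTL), while MSR1 was higher in Late CTL (34.4 against 26.3 CPM). Markers of CD16 monocytes (4 of 5 in the table) summed to 484 to 618 CPM in Late CTL and 923 to 960 CPM in Early CTL, and those of neutrophils (5 of 6) to 364 to 420 CPM in Late CTL and 700 to 743 CPM in Early CTL. CSF3R made up most of the neutrophil sum (315 CPM in Late CTL and 581 CPM in Early CTL). CAMP and CXCR2 were also lower in Late CTL, whereas MME (3.26 against 1.28 CPM) and LTF (1.41 against 0.0611 CPM) were higher. The T cell markers (5 of 7) summed to 304 to 322 CPM in Late ACT, 317 to 347 in Late CTL, 211 to 343 in Early ACT and 277 to 303 in Early CTL, of which IL7R made up group means of 286 to 325 CPM, while LCK averaged 1.91 to 3.45 CPM and CD3E and CD3G 0 to 0.259 CPM. The 6 B cell markers summed to 4.03 to 8.95 CPM over the 12 libraries. Thinned to 3910680 counts each, 17470 to 18575 genes were detected per late library and 13617 to 13938 per early library. The part of these differences in the results below was not tested, and in bulk RNA fewer cells of a type and less RNA per cell cannot be told apart.

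Levels below are CPM, here the share of the tested genes' counts after scaling by TMM factors (0.879 to 1.10, lowest in Early ACT), and are comparable between libraries but not between genes, since they are not divided by gene length. Log2 fold changes, with their standard error (SE), come from edgeR's quasi-likelihood test over all 12 libraries. Adjusted p-values were corrected by the Benjamini-Hochberg method over all genes tested in a comparison, and a gene is called at an adjusted p under 0.05.

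In unstimulated macrophages, the later time point had more TNF RNA and less RNA of the NF-kB subunit RELB and the A20 partners TNIP1 and TNIP2. TNF was 3.00-fold higher, TRAF1 1.72-fold and TNFAIP3 1.29-fold, whereas RELB was 2.18-fold, TNIP2 1.95-fold and TNIP1 1.52-fold lower. NFKBIA, TNFAIP6, NFKB1 and NFKB2 did not pass. Thus 3 of the 10 genes were higher, 3 were lower and 4 were not called, beside 20.9% of all tested genes higher and 19.8% lower (40.7% called). With 10 genes, a share of 6 called stands near that background, and their median log2 fold change was 0.07, beside 0.02 over all tested genes.

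TNF, the ligand, stood at 1100.4, 1102 and 1323 CPM in the Late CTL libraries, against 384, 385 and 405 CPM in the Early CTL libraries. Each late library lay far above each early library, and the log2 fold change was 1.59 ± 0.13 (SE, adjusted p = 9.25e-10). TRAF1 had 3386, 3312 and 2717 CPM in Late CTL and 1931, 1842 and 1690.4 CPM in Early CTL, again with no overlap (0.79 ± 0.12, adjusted p = 1.04e-05). TNFAIP3, the A20 gene, had 1728, 1685 and 1619.9 CPM in Late CTL and 1323, 1293 and 1299 CPM in Early CTL. The groups did not overlap and the difference was small (0.36 ± 0.10, adjusted p = 0.00490). NFKBIA, which encodes IkB-alpha, had 6377, 6481 and 7668 CPM in Late CTL and 5841, 5758 and 6215 CPM in Early CTL. Its late libraries all lay above its early ones, but the log2 fold change of 0.20 ± 0.11 did not pass (adjusted p = 0.1498). It passed in 3 alternatives, without Early ACT library 1 (0.19), with upper-quartile scaling and with the compared groups alone (adjusted p = 0.0126 to 0.0272). The authors' deposited table lists NFKBIA as higher late, with a log2 fold change of 0.22 ± 0.08 (adjusted p = 0.0254).

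The genes that were lower late were separated as clearly. RELB, the subunit that pairs mainly with the p52 product of NFKB2, had 43.9, 54.1 and 44.3 CPM in Late CTL and 108, 108 and 95.7 CPM in Early CTL (-1.12 ± 0.14, adjusted p = 4.96e-07). TNIP2 had 167, 193 and 182 CPM in Late CTL and 349, 363 and 344 CPM in Early CTL (-0.96 ± 0.12, adjusted p = 1.18e-06). TNIP1 had 898, 879 and 959.5 CPM in Late CTL and 1375, 1396 and 1401 CPM in Early CTL (-0.61 ± 0.12, adjusted p = 2.83e-04). In each of these genes the highest late library was below the lowest early one. NFKB2, at 306, 297 and 274 CPM in Late CTL and 327, 348 and 329 CPM in Early CTL, also did not overlap, but its log2 fold change of -0.20 ± 0.11 did not pass (adjusted p = 0.151; -0.22 and adjusted p = 0.0141 without Early ACT library 1). NFKB1 had 2662, 2633 and 2336 CPM in Late CTL and 2355, 2347 and 2397 CPM in Early CTL, and TNFAIP6 had 51.5, 44.4 and 45.2 CPM in Late CTL and 43.8, 46.1 and 46.5 CPM in Early CTL. In both genes the groups overlapped, and neither passed (0.10, adjusted p = 0.426, and 0.04, adjusted p = 0.832). In all, the libraries of 4 genes lay wholly higher and of 4 wholly lower in Late CTL, beside 26.7% and 26.1% of tested genes.

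**Figure D1:**
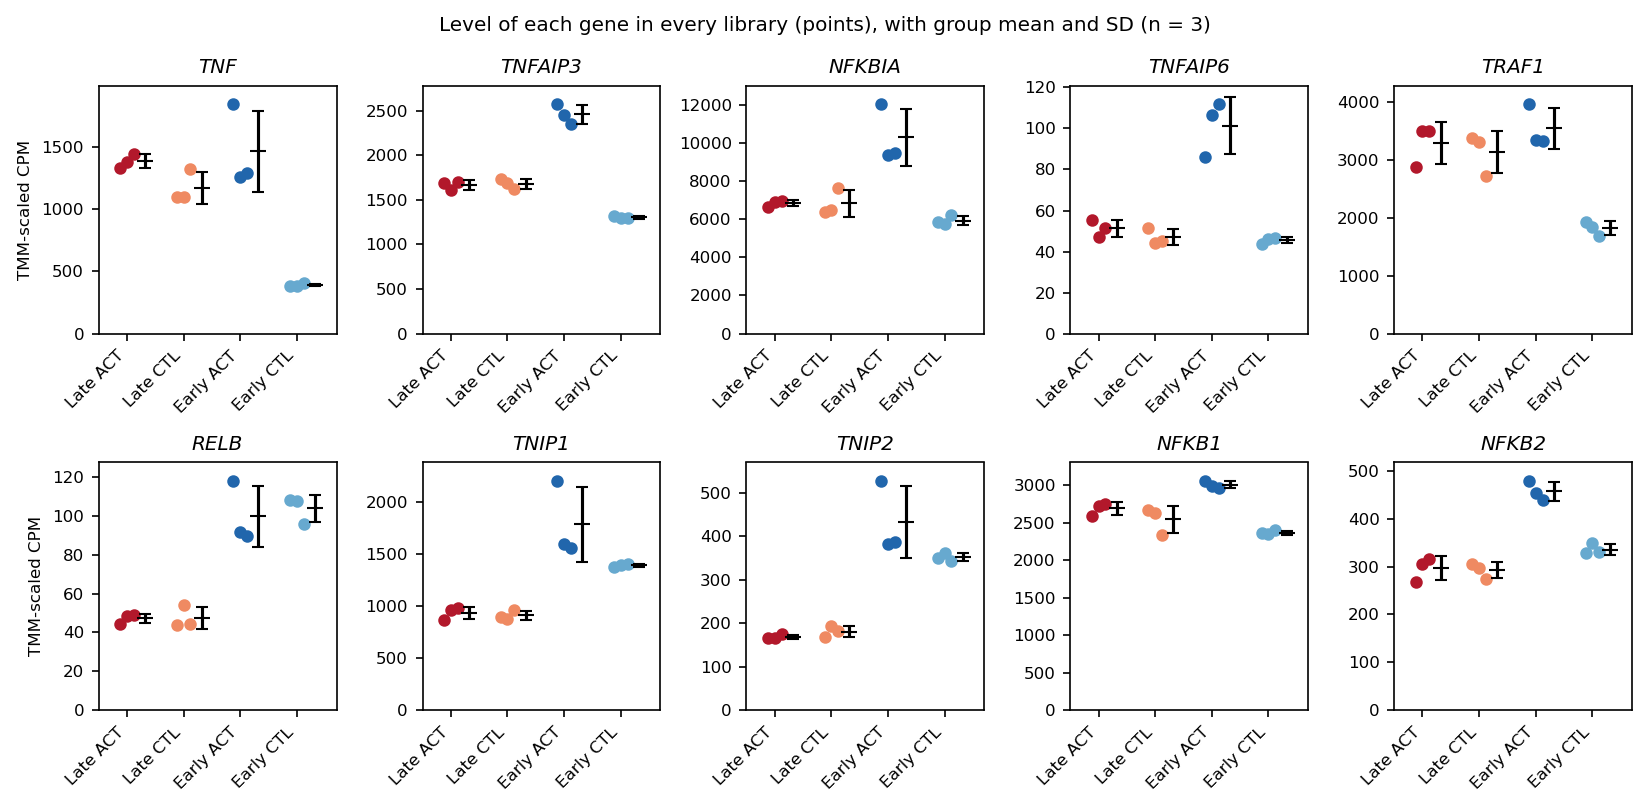
TMM-scaled CPM (linear axis from 0) of each of the 10 genes in the 12 libraries; points are libraries and black bars give the group mean and SD (n = 3), with Late ACT, Late CTL, Early ACT and Early CTL from left to right. TNF is low in Early CTL (384 to 405 CPM) and at 1100.4 CPM or more in the other libraries, whereas RELB, TNIP1 and TNIP2 are lower in the 6 late libraries than in the 6 early ones.

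Between the libraries labelled as stimulated, TNF RNA did not differ detectably between the times. Most of the inhibitors and the subunits RELB and NFKB2 were lower late. Stimulated cells are here and below those labelled ACT, and 0 of the 11826 tested genes were called between Late ACT and Late CTL. TNIP2 was 2.56-fold, RELB 2.10-fold, TNFAIP6 1.99-fold, TNIP1 1.90-fold, NFKB2 1.54-fold, NFKBIA 1.502-fold and TNFAIP3 1.47-fold lower in Late ACT than in Early ACT. Of the 10 genes, 7 were lower, 0 higher and 3 (TNF, TRAF1 and NFKB1) not called, beside 19.7% of all tested genes lower and 19.1% higher (38.8% called). Their median log2 fold change was -0.61, beside 0.05 over all tested genes. The number called was 7 under every alternative run.

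TNF had 1333, 1382 and 1448 CPM in the Late ACT libraries, against 1846, 1261 and 1296 CPM in the Early ACT libraries. The late libraries lay between the early ones, and the log2 fold change was -0.08 ± 0.13 (95% interval -0.34 to 0.18, adjusted p = 0.651). Without Early ACT library 1, the highest of them, it was 0.10 (adjusted p = 0.337), so the sign turned and the gene was not called either way. Upper-quartile scaling also turned it, to 0.02. TRAF1 had 2875, 3499 and 3508 CPM in Late ACT and 3962, 3351 and 3334 CPM in Early ACT, which overlap (-0.11 ± 0.12, adjusted p = 0.488). NFKB1, whose full-length product p105 acts as an IkB and whose processed form p50 is a subunit, had 2594, 2721 and 2752 CPM in Late ACT and 3056, 2993 and 2964 CPM in Early ACT. Its groups did not overlap, yet it did not pass (-0.16 ± 0.10, adjusted p = 0.209).

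The feedback inhibitor genes NFKBIA and TNFAIP3, and the TNF-induced gene TNFAIP6, were lower in every Late ACT library. NFKBIA had 6672, 6920.3 and 6982 CPM in Late ACT and 12044, 9358 and 9508 CPM in Early ACT (-0.59 ± 0.11, adjusted p = 2.25e-04; -0.48 without Early ACT library 1). TNFAIP3 had 1691, 1607 and 1703 CPM in Late ACT and 2570.3, 2451 and 2355 CPM in Early ACT (-0.56 ± 0.10, adjusted p = 9.64e-05). TNFAIP6 had 55.3, 47.1 and 51.6 CPM in Late ACT and 85.9, 107 and 112 CPM in Early ACT (-0.99 ± 0.13, adjusted p = 2.27e-06). In these genes the late and early libraries were wholly apart, and Early ACT library 1 was the highest of its group for NFKBIA and TNFAIP3 and the lowest for TNFAIP6.

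The A20 partners showed the same separation. TNIP1 had 868, 959.9 and 979.6 CPM in Late ACT and 2203, 1592 and 1556 CPM in Early ACT (-0.93 ± 0.12, adjusted p = 1.81e-06; -0.77 without Early ACT library 1). TNIP2 had 166, 165 and 174 CPM in Late ACT and 528, 383 and 387 CPM in Early ACT (-1.36 ± 0.12, adjusted p = 9.12e-09; -1.21 without that library). Among the 10 genes TNIP2 had the lowest log2 fold change in this comparison. Early ACT library 1 was the highest library for both genes, and the other Early ACT libraries still lay above every late one.

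Of the subunits, RELB had 44.5, 48.3 and 49.0 CPM in Late ACT and 118, 91.7 and 89.8 CPM in Early ACT (-1.07 ± 0.13, adjusted p = 1.18e-06; -0.96 without Early ACT library 1). NFKB2 had 268, 306 and 316 CPM in Late ACT and 479, 453 and 439 CPM in Early ACT (-0.62 ± 0.11, adjusted p = 8.03e-05). No late library reached the lowest early one in either gene. Counting all 10 genes, 8 had their Late ACT libraries wholly below their Early ACT libraries and 0 wholly above, beside 24.5% and 26% of tested genes.

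**Figure D2:**
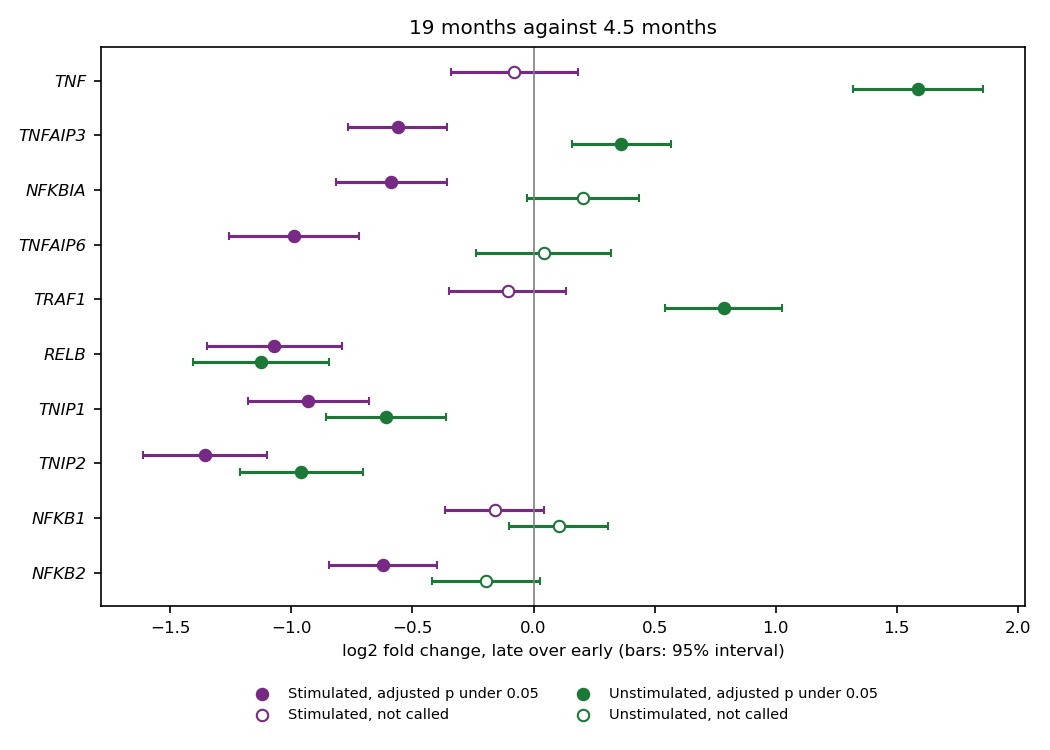
Log2 fold change of late over early macrophages for the 10 genes (points), in stimulated and in unstimulated cells. Bars give the confidence interval of each value, which for TNF in stimulated cells runs from -0.34 to 0.18. In unstimulated cells TNF is at 1.59 and RELB at -1.12, and in stimulated cells the values run from -0.08 for TNF to -1.36 for TNIP2.

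The stimulation response was measured within each time, in the same libraries as above, so that these comparisons share samples with those between the times. At 4.5 months LPS and interferon-gamma raised TNF 3.75-fold, TNFAIP6 2.24-fold, TRAF1 1.95-fold, TNFAIP3 1.88-fold, NFKBIA 1.73-fold, NFKB2 1.36-fold and NFKB1 1.27-fold. RELB, TNIP1 and TNIP2 did not pass. Of the 10 genes, 7 rose and 0 fell, beside 4.57% of all tested genes that rose and 2.66% that fell (7.23% called). Their median log2 fold change was 0.62, beside 0.00 over all tested genes.

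TNF rose by 1.91 ± 0.13 on the log2 scale (SE, adjusted p = 7.90e-11), and by 1.71, or 3.27-fold, without Early ACT library 1. TNFAIP6 rose by 1.16 ± 0.13 (adjusted p = 7.87e-07), TRAF1 by 0.96 ± 0.12 (adjusted p = 3.04e-06), TNFAIP3 by 0.91 ± 0.10 (adjusted p = 4.18e-07) and NFKBIA by 0.79 ± 0.11 (adjusted p = 2.69e-05). These 5 genes were called under every alternative run. The subunit calls were less firm. NFKB2 rose by 0.45 ± 0.11 (adjusted p = 0.00959), but did not pass without Early CTL library 1 or without Early CTL library 3 (adjusted p = 0.0641 to 0.0705). NFKB1 rose by 0.34 ± 0.10 (adjusted p = 0.0326), but 11 of 18 alternatives ended its call (adjusted p = 0.0522 to 0.139) while the log2 fold change stayed between 0.33 and 0.36. Among these were the fits without any one of Early ACT libraries 2 and 3, the 3 Early CTL libraries, Late ACT libraries 2 and 3 and Late CTL library 2. TNIP1, at 0.36 ± 0.12 (adjusted p = 0.0721), and TNIP2, at 0.29 ± 0.12 (adjusted p = 0.154), had Early ACT libraries wholly above the Early CTL libraries without passing. Without Early ACT library 1 they were at 0.18 and 0.13, and TNIP1 passed without Early ACT library 2 or 3 and with DESeq2 (adjusted p = 0.0319 to 0.0446). RELB was at -0.06 ± 0.13 (adjusted p = 0.829), with overlapping libraries. In 9 of the 10 genes all Early ACT libraries lay above all Early CTL libraries and in 0 below, beside 12.6% and 13% of tested genes. The background itself moved with single libraries: 1554 genes were called without Early ACT library 1, in place of 855, and 464 to 485 without any one of the 3 Early CTL libraries.

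At 19 months none of the 10 genes passed, and none of the 11826 tested genes did. By edgeR's quasi-likelihood test 527 genes and 0 of the 10 had an unadjusted p under 0.05. DESeq2 gave an adjusted p to 2125 genes, of which it called 14, and to 9 of the 10, of which it called 0. The files hold no record, other than this RNA, of whether the late wells labelled ACT were stimulated, so a late response is here the difference between the libraries labelled Late ACT and Late CTL. TNF was the sole gene of the 10 whose Late ACT libraries, 1333 to 1448 CPM, all lay above the Late CTL libraries, 1100.4 to 1323 CPM; 5.44% of tested genes were so placed. Its log2 fold change was 0.24 ± 0.13 (95% interval -0.02 to 0.50, adjusted p = 0.998), and that interval excludes the rise seen at 4.5 months. For TNFAIP3 the log2 fold change was -0.01 (95% interval -0.21 to 0.19), for NFKBIA 0.00 (-0.23 to 0.23), for TRAF1 0.07 (-0.17 to 0.31) and for TNFAIP6 0.13 (-0.15 to 0.41). The upper limits of these 4 intervals lie below the early log2 fold changes of the same genes.

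**Figure D3:**
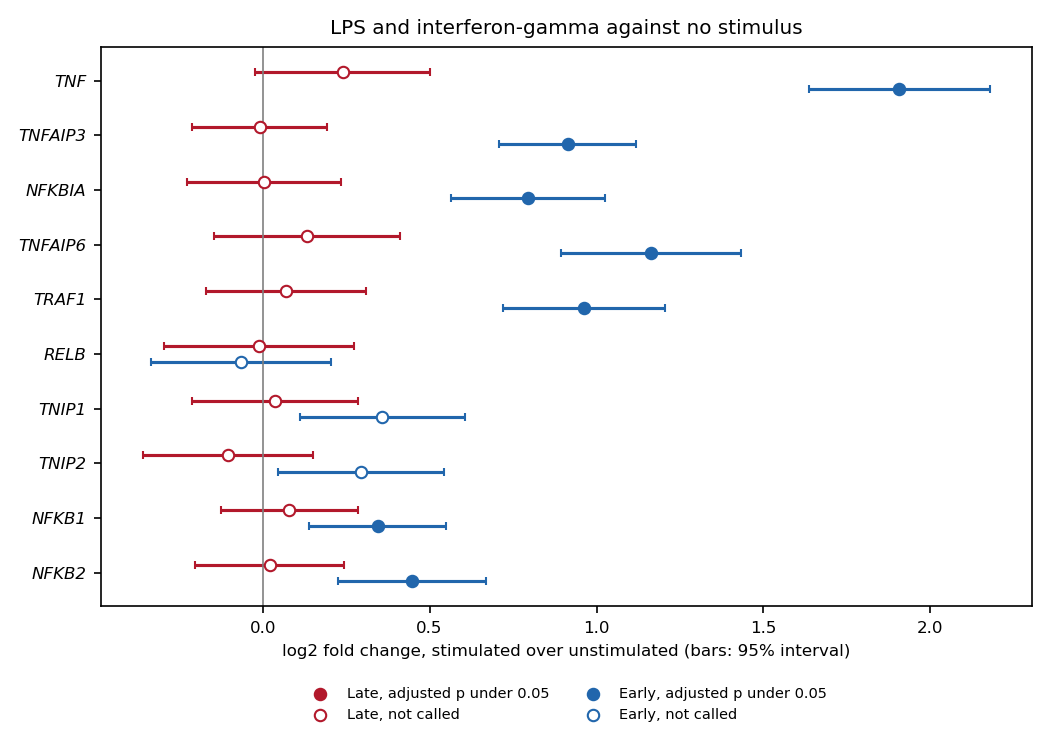
Log2 fold change of stimulated over unstimulated macrophages for the 10 genes at 19 months and at 4.5 months (points). Bars give the confidence interval of each value, which for TNF at 19 months runs from -0.02 to 0.50. Early values reach 1.91 for TNF and 1.16 for TNFAIP6, whereas the late values lie between -0.10 (TNIP2) and 0.24 (TNF).

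The difference between the responses was tested directly as the late response minus the early response, with the late wells taken as labelled. It was negative and called for 5 of the 10 genes, beside 1.23% of all tested genes lower and 0.186% higher (1.41% called). These were TNF (-1.67 ± 0.18, adjusted p = 1.13e-06), TNFAIP6 (-1.03 ± 0.19, adjusted p = 0.00230), TNFAIP3 (-0.92 ± 0.14, adjusted p = 1.96e-04), TRAF1 (-0.89 ± 0.17, adjusted p = 0.00278) and NFKBIA (-0.79 ± 0.16, adjusted p = 0.00571). Without Early ACT library 1 they were at -1.47, -1.13, -0.89, -0.81 and -0.67, and each was still called. NFKB2 (-0.43, adjusted p = 0.226), TNIP2 (-0.40, adjusted p = 0.378), TNIP1 (-0.32, adjusted p = 0.508), NFKB1 (-0.26, adjusted p = 0.510) and RELB (0.05, adjusted p = 0.956) did not pass, and NFKB2 passed without Early ACT library 1 (-0.39, adjusted p = 0.0265). The number of all tested genes called was 546 without that library, in place of 167, and 95 to 106 without Early CTL library 1 or 2 or Late ACT library 1 or 3. The median of the 10 genes was -0.61, beside -0.01 over all tested genes.

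The components of each difference between responses were not alike. For TNF and TRAF1 the unstimulated late level was high: Late CTL was 0.32 below Early ACT on the log2 scale for TNF (adjusted p = 0.0517) and 0.18 below for TRAF1 (adjusted p = 0.243), neither of which passed. That TNF difference did pass without Early ACT library 2 or 3 or Late CTL library 3, and without a filter on low counts (adjusted p = 0.0131 to 0.0185). Late ACT was 0.21 above Early CTL for NFKBIA (adjusted p = 0.135) and 0.17 above for TNFAIP6 (adjusted p = 0.300). The libraries of these groups did not overlap in either gene. The NFKBIA difference passed without Early ACT library 1 (0.19, adjusted p = 0.0100), with upper-quartile scaling and with the compared groups alone (adjusted p = 9.88e-05 to 0.0265). TNFAIP3 lay between, with Late ACT 0.35 above Early CTL (adjusted p = 0.00520) and Late CTL 0.55 below Early ACT (adjusted p = 1.35e-04). Over all tested genes, 36.2% were called between Late CTL and Early ACT and 44.6% between Late ACT and Early CTL.

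Ordered by mean level from high to low, TNF ran Early ACT (1468 ± 328 CPM), Late ACT (1387 ± 57.8), Late CTL (1175 ± 128) and Early CTL (391 ± 11.8; SD, n = 3 each), and of the neighbours only Late CTL and Early CTL differed by the test. NFKBIA, TNFAIP6 and TRAF1 had the same order. In NFKBIA and TNFAIP6 only the step between Late ACT, 6858 ± 164 and 51.3 ± 4.13 CPM, and Early ACT, 10303 ± 1509 and 101 ± 13.7 CPM, passed, and in TRAF1 only that between Late CTL, 3138 ± 367 CPM, and Early CTL, 1821 ± 121 CPM. TNFAIP3 ran Early ACT (2459 ± 108 CPM), Late CTL (1678 ± 54.5), Late ACT (1667 ± 52.6) and Early CTL (1305 ± 16.0), and only the late groups did not differ. TNIP1 ran Early ACT (1784 ± 364 CPM), Early CTL (1391 ± 13.6), Late ACT (936 ± 59.3) and Late CTL (912 ± 42.0), and TNIP2 Early ACT (433 ± 82.4 CPM), Early CTL (352 ± 9.61), Late CTL (181 ± 12.9) and Late ACT (168 ± 5.05). In both of these only the step between the early and the late groups passed. RELB likewise had its early groups, 104 ± 7.07 CPM in Early CTL and 99.9 ± 15.8 in Early ACT, above its late groups, 47.4 ± 5.77 in Late CTL and 47.3 ± 2.41 in Late ACT. NFKB2 had Early ACT (457 ± 20.5 CPM) above the 3 other groups, which ran from 292 ± 16.2 to 335 ± 11.6 CPM and did not differ between neighbours, although Late ACT against Early CTL (-0.18, adjusted p = 0.192) passed without Early ACT library 1 (-0.19, adjusted p = 0.0247) and with the compared groups alone (adjusted p = 0.0303). NFKB1 varied least in its group means, from 3005 ± 47.3 CPM in Early ACT through 2689 ± 83.5 in Late ACT and 2544 ± 181 in Late CTL to 2367 ± 27.04 in Early CTL, and no neighbours differed by the test. Its Late CTL against Early ACT (-0.24, adjusted p = 0.0600) passed without Early ACT library 1 (-0.25, adjusted p = 0.00447), with DESeq2 and without a filter on low counts. Late ACT against Early CTL (0.18, adjusted p = 0.136) passed without that library (0.17, adjusted p = 0.0237), with DESeq2, with upper-quartile scaling and with the compared groups alone.

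TNF was also set against the other 9 genes within each library, as the number of TNF counts per count of the other gene. Such a ratio does not depend on library scaling, and since gene lengths differ only its change between groups can be read. In unstimulated cells there were 0.170 to 0.173 TNF counts per NFKBIA count in Late CTL and 0.0651 to 0.0669 in Early CTL, a 2.61-fold higher ratio. Per TNFAIP3 count the ratio was 2.33-fold, per TNIP1 count 4.57-fold, per TNIP2 count 5.84-fold and per RELB count 6.58-fold higher in Late CTL than in Early CTL. The late libraries lay wholly above the early ones for all 9 genes, and the same held for 81.3% of the 11825 other tested genes, so this count is near its background.

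In stimulated cells the ratios differed less. There were 0.200 to 0.207 TNF counts per NFKBIA count in Late ACT and 0.135 to 0.153 in Early ACT, a 1.43-fold higher ratio. Per TNIP2 count the ratio was 2.44-fold (8.04 to 8.36 in Late ACT and 3.29 to 3.50 in Early ACT), per RELB count 2.01-fold and per TNIP1 count 1.81-fold higher in Late ACT. For 7 of the 9 genes the late libraries lay wholly above the early ones, beside 20.7% of the other tested genes. TRAF1 (1.04-fold) and NFKB1 (1.07-fold) overlapped, with exact two-sided permutation p = 0.6 and p = 0.5 on 3 against 3 libraries. The other 16 of the 18 comparisons gave an exact permutation p = 0.1, the smallest that 3 against 3 libraries allow, so none could pass 0.05, adjusted or not. Early ACT library 1 was the highest of its group in TNF and in 8 of the 9 other genes, and the lowest in TNFAIP6.

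**Figure D4:**
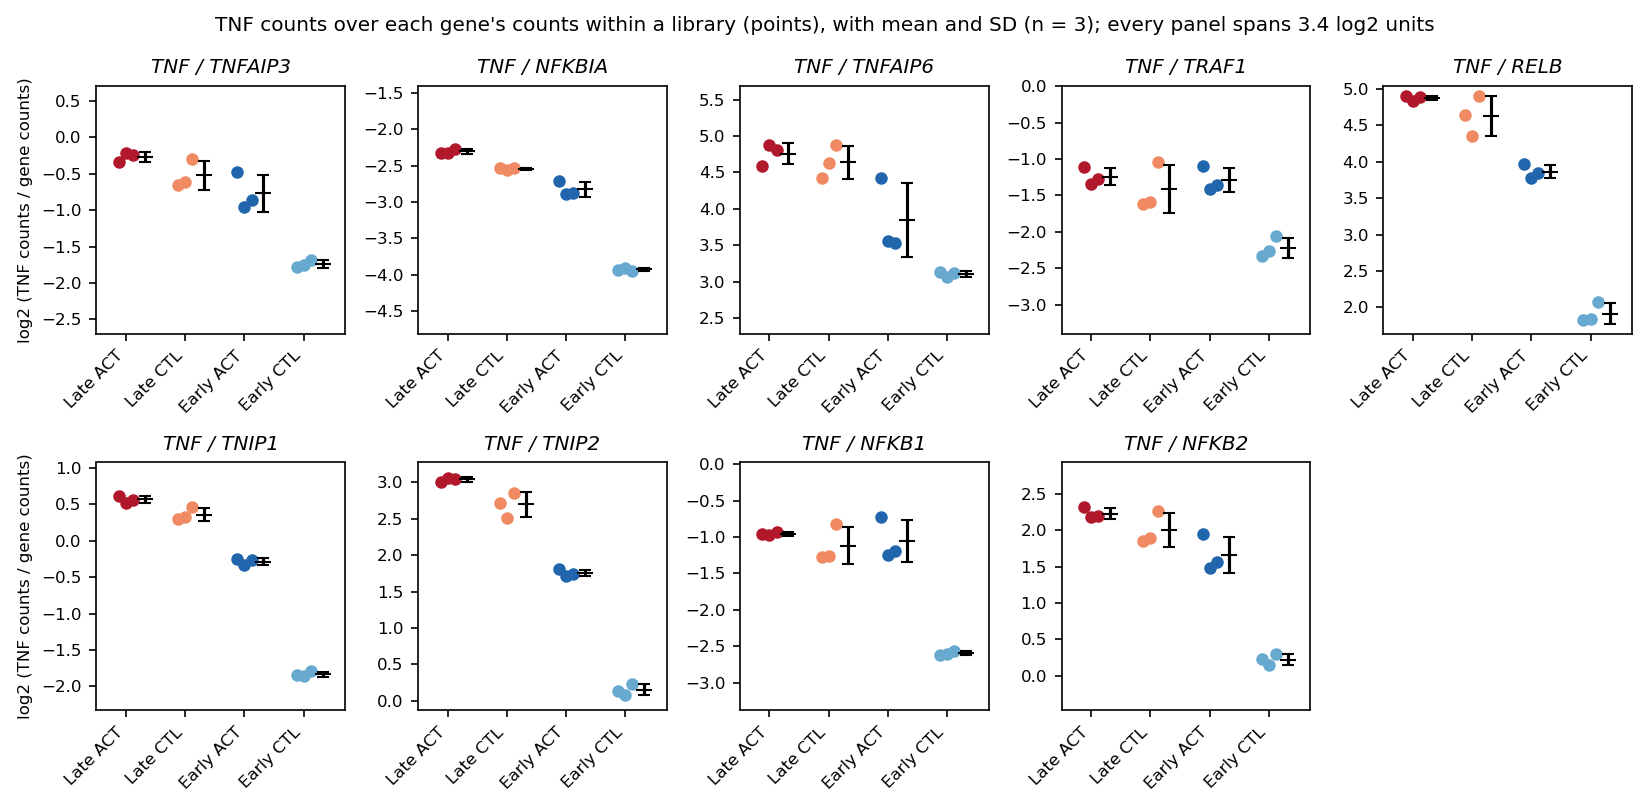
TNF counts per count of each of the other 9 genes, on a log2 axis, for every library (points), with the mean and SD of each group (black bars, n = 3); Late ACT, Late CTL, Early ACT and Early CTL run from left to right. In unstimulated cells the 3 late libraries lie above the 3 early ones for all 9 genes, with the widest gap for RELB (6.58-fold).

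The wider pathway was taken from 6 lists of 49 genes, which include the 10; 41 had a row under their name and 39 were tested. In unstimulated cells 11 were higher late, 11 lower and 17 not called, and in stimulated cells 4 were higher, 15 lower and 20 not called. Over all tested genes 20.9% were higher and 19.8% lower in unstimulated cells, and 19.1% higher and 19.7% lower in stimulated cells. On early stimulation 9 rose, 7 of them among the 10 genes, and 1 fell, beside 4.57% and 2.66% of all tested genes. On late stimulation 0 passed, as over all tested genes. The early count ran from 6 without Early CTL library 3 to 17 without Early ACT library 1. In the difference between responses 5 were called, all of them among the 10 genes, against 10 without Early ACT library 1. Over all tested genes 1.41% were called there with all 12 libraries.

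Both TNF receptors were lower late. TNFRSF1A, the receptor found on most cells, had a mean level of 29.3 ± 5.63 CPM in Late ACT, 31.2 ± 2.01 in Late CTL, 60.2 ± 8.40 in Early ACT and 102 ± 2.16 in Early CTL (SD, n = 3 each). It was lower by a log2 fold change of -1.71 in unstimulated cells (± 0.15 SE, adjusted p = 2.14e-09) and by one of -1.02 after stimulation (± 0.15 SE, adjusted p = 6.99e-06). It was also the gene of these lists that fell on early stimulation (-0.77 ± 0.14, adjusted p = 6.43e-04). TNFRSF1B, the second TNF receptor, had 526 ± 62.7 CPM in Late ACT, 566 ± 47.6 in Late CTL, 1933 ± 346 in Early ACT and 2307 ± 61.7 in Early CTL, with log2 fold changes of -2.03 ± 0.13 in unstimulated and -1.88 ± 0.13 in stimulated cells (adjusted p = 8.70e-12 and 3.69e-11). In both receptor genes the late libraries were wholly below the early ones. ADAM17, which encodes the protease that sheds TNF from the cell surface, did not pass (0.07 without and -0.03 with stimulation, adjusted p = 0.631 and 0.879).

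Of the adaptors and kinases between receptor and NF-kB, 13 were tested, with 4 higher, 3 lower and 6 not called late in unstimulated cells and 0 higher, 2 lower and 11 not called in stimulated cells, beside 40.7% and 38.8% of all tested genes called. TRAF3, a negative regulator of the non-canonical NF-kB pathway, was lower in both (-0.64 and -0.71, adjusted p = 1.73e-04 and 5.64e-05). BIRC2, a ubiquitin ligase of the TNF receptor complex, was higher in unstimulated cells (0.55, adjusted p = 0.00542) and was at 0.23 in stimulated cells (adjusted p = 0.244; -0.02 without Early ACT library 1). IKBKG, which encodes the regulatory subunit of the IkB kinase, was at -0.35 in unstimulated cells (adjusted p = 0.0660; 0.00279 without Early ACT library 1, and under 0.05 in 4 other alternatives) and lower in stimulated cells (-0.45, adjusted p = 0.0193), a call lost without Early ACT library 1 or Late ACT library 1, under upper-quartile scaling, or with the compared groups alone (adjusted p = 0.0648 to 0.102).

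All 5 NF-kB subunit genes were tested, and REL and RELA moved in opposite directions. REL, which encodes c-Rel, was higher late without stimulation (0.55 ± 0.17, adjusted p = 0.0113) and with it (0.43 ± 0.17, adjusted p = 0.0459). The stimulated call was lost in 12 of 18 alternatives, 9 of them fits without a library (any but Early ACT 2, Early ACT 3 and Late CTL 3; adjusted p = 0.0533 to 0.184) and with a log2 fold change of 0.18 without Early ACT library 1, and the unstimulated call without Early CTL library 3 or Late CTL library 1 (adjusted p = 0.0603 to 0.0886). RELA, which encodes p65, was lower late without stimulation (-0.37 ± 0.11, adjusted p = 0.0108) and with it (-0.50 ± 0.11, adjusted p = 0.00105). The unstimulated RELA call was lost under upper-quartile scaling (adjusted p = 0.0956). With RELB and NFKB2, 3 of the 5 subunit genes were thus lower in Late ACT than in Early ACT and REL alone was higher. Over all tested genes 19.7% were lower and 19.1% higher in that comparison.

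Among the inhibitors of the IkB family, 4 of 6 genes were tested, with 1 higher, 1 lower and 2 not called in unstimulated cells and 0 higher, 3 lower and 1 not called in stimulated cells. Over all tested genes 40.7% and 38.8% were called, so that 2 of 4 in unstimulated cells is near the background. NFKBIE, which encodes IkB-epsilon, was lower late without stimulation (-0.53, adjusted p = 0.00107) and with it (-0.56, adjusted p = 6.62e-04). NFKBIB, which encodes IkB-beta, rose on early stimulation (0.54, adjusted p = 0.0312), was lower in Late ACT than in Early ACT (-0.53, adjusted p = 0.00886) and was at -0.03 in unstimulated cells (adjusted p = 0.913). Its rise was not called without Early CTL library 2 or 3 or with the compared groups alone (adjusted p = 0.0818 to 0.204). NFKBID, a nuclear IkB protein gene, was higher late in unstimulated cells (0.41, adjusted p = 0.00925; adjusted p = 0.0521 without Early CTL library 2) and at 0.26 in stimulated cells (adjusted p = 0.0921), where it passed without Early ACT library 1 (0.39, adjusted p = 2.78e-04) and with upper-quartile scaling (adjusted p = 0.0233).

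The list of A20 and other ubiquitin-linked inhibitors had calls in both directions. Of 8 tested genes, 4 were higher and 3 lower late in unstimulated cells, and 3 were higher and 4 lower in stimulated cells, beside 20.9% higher and 19.8% lower, and 19.1% higher and 19.7% lower, of all tested genes. CYLD, which encodes a deubiquitinase that restrains NF-kB, was higher in unstimulated (0.64, adjusted p = 1.87e-04) and stimulated cells (0.41, adjusted p = 0.00904), as was ITCH, which encodes a ubiquitin ligase that works with A20 (0.44, adjusted p = 0.00544, and 0.60, adjusted p = 4.04e-04). TNIP3, the third of the A20-binding TNIP genes, was lower in both (-0.86, adjusted p = 2.85e-05, and -0.72, adjusted p = 2.05e-04), so that all 3 TNIP genes were lower late in unstimulated and in stimulated cells. Of the 5 tested genes of the list of other TNF-induced genes, 0 were called between the times in unstimulated cells and 1, TNFAIP6, in stimulated cells. Over all tested genes 40.7% and 38.8% were called. CD83 (0.20 and -0.17), ICAM1 (0.05 and -0.18) and TNFAIP2 (-0.17 and -0.27) did not pass in unstimulated or stimulated cells. CD83 passed in both without Early ACT library 1 (0.18, adjusted p = 0.0178, and -0.20, adjusted p = 0.0229), and in unstimulated cells also with DESeq2, upper-quartile scaling and the compared groups alone (adjusted p = 0.00461 at the lowest). In the authors' deposited table, which alone pairs their identifiers with these names, NFKBIZ was higher (0.73, adjusted p = 0.0234) and TRADD lower late (-0.88, adjusted p = 0.00720) in unstimulated cells.

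**Figure D5:**
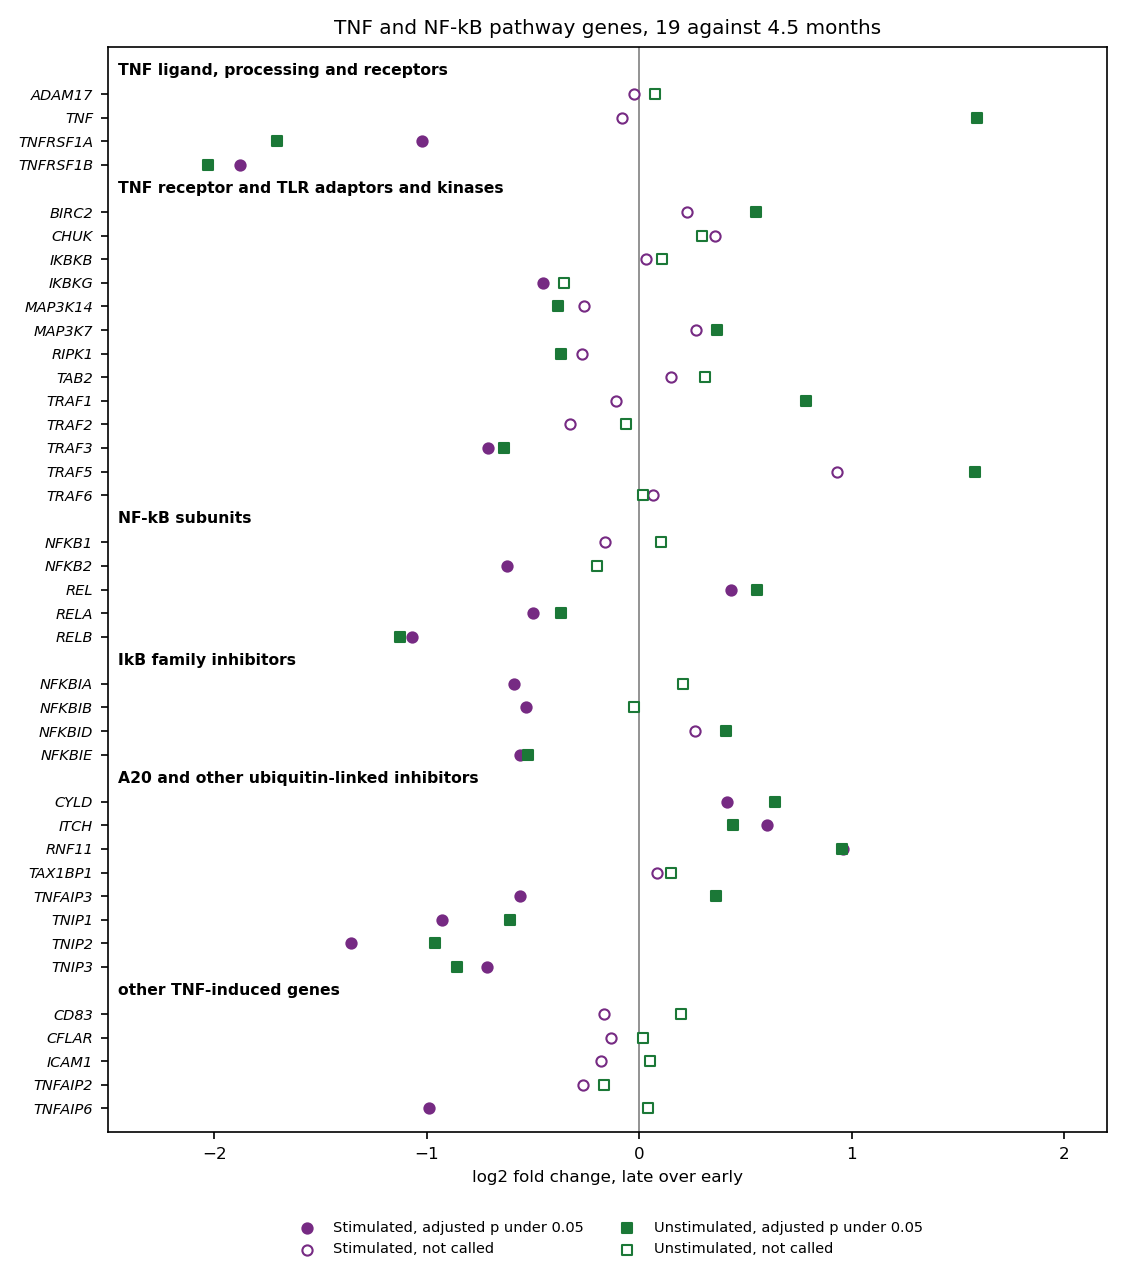
Log2 fold change of late over early for the tested genes of the pathway lists in stimulated (circles) and unstimulated cells (squares), with filled symbols for an adjusted p under 0.05. Both TNF receptor genes lie between -2.03 and -1.02, and TNF in unstimulated cells, at 1.59, is the highest value.

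Of 5333 named genes with a mean of at least 10 CPM, those whose log2 CPM followed TNF most closely over the 12 libraries were CCL4L1 (Pearson r = 0.989), a chemokine gene whose close copies can share reads, the small Maf transcription factor gene MAFF (0.987), the cytokine subunit gene IL23A (0.980), the transcription factor gene XBP1 (0.979), the lipid transporter gene MFSD2A (0.977) and the transcription factor gene MYC (0.974). These values are a description over libraries that share 4 groups. IL23A averaged 112 CPM in Late ACT, 101 CPM in Late CTL, 137 CPM in Early ACT and 42.2 CPM in Early CTL, with Early CTL apart from the rest as for TNF. XBP1 averaged 1171 CPM in Late ACT, 1167 CPM in Late CTL, 1132 CPM in Early ACT and 680.2 CPM in Early CTL. Within the 10 genes, r with TNF was 0.946 for TRAF1 (rank 25 of 5333), 0.765 for TNFAIP3, 0.727 for NFKB1, 0.671 for NFKBIA, 0.461 for TNFAIP6, 0.140 for NFKB2, -0.142 for TNIP1, -0.303 for TNIP2 and -0.486 for RELB.

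The authors' deposited tables list late over early for genes with an adjusted p under 0.05. For unstimulated cells the authors' deposited table gives TNF as 1.60 ± 0.08 (SE, adjusted p = 1.83e-76), TRAF1 as 0.80, TNFAIP3 as 0.38, NFKBIA as 0.22, TNIP1 as -0.59, TNIP2 as -0.94 and RELB as -1.11. For stimulated cells the authors' deposited table gives TNFAIP3 as -0.56, NFKBIA as -0.58, NFKB2 as -0.62, TNIP1 as -0.93, TNFAIP6 as -0.98, RELB as -1.07 and TNIP2 as -1.35, and lists neither TNF nor TRAF1. NFKB1 is in neither of the authors' deposited tables. The authors' deposited tables, on build Mmul_8.0.1, place TNF at chr4:32435035-32436829, TNFAIP3 at chr4:129420176-129433997, TNIP2 at chr5:2971047-2990748, TNIP1 at chr6:149118855-149154016 and NFKBIA at chr7:96813563-96817372. They place NFKB2 at chr9:98111869-98118760, TNFAIP6 at chr12:37915272-37936090, TRAF1 at chr15:18340700-18368770 and RELB at chr19:40311816-40355004.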

How the data were processed

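Libraries were prepared with Nextera XT from SMART-Seq V4 cDNA of total RNA, a kit pair without strand information, per the labels' protocols. The deposited table holds raw counts per gene and library. Build Mmul_8.0.1 and bcl2fastq are named, per the submitters' processing notes; the sources used here name no aligner or counting tool. The authors also deposited 2 tables of late over early with a log2 fold change and its standard error, a p-value and an adjusted p-value, a mean normalized signal and a test score, per the file headers; the last 2 were not used.

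Of the 10 genes, 9 have an Ensembl identifier as row name, paired with a symbol by a name table, and NFKB2 is listed by symbol. A usable name was found for 15307 genes; the unnamed rest took 22.1% of all counts. Counts were tested with edgeR 4.0.16 in R 4.3.3 (robust quasi-likelihood F test, TMM, filterByExpr by group, 1 coefficient per group over 12 libraries, Benjamini-Hochberg adjustment, threshold 0.05); the biological coefficient of variation was 0.143. Standard errors were derived from the F statistic, as |log2 fold change| divided by its square root. Log2 CPM used a prior count of 2. The script was tested on simulated data. Alternatives were DESeq2 1.42.0, RLE and upper-quartile factors, no filter on low counts, the compared groups alone, the replicate number as a block, and each library left out. The text names all 10 genes, up to 3 further genes per pathway list with the smallest p in the interaction or between the times, and the 6 genes most correlated with TNF. The genes, lists, tests and alternatives were chosen with earlier results of these data known. No molecular identifiers were used, so counting precision is that of reads.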

Additional observations from a re-analysis of the deposited data

Results flagged for a closer look

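In 5 of the 10 genes the response to stimulation differed between 19 and 4.5 months by the direct test of the late response minus the early response (edgeR quasi-likelihood test, adjusted over 11826 genes). The log2 difference was -1.67 for TNF, with a late response of 0.24 and an early response of 1.91. It was -1.03 for TNFAIP6 (late 0.13, early 1.16), -0.92 for TNFAIP3 (late -0.01, early 0.91), -0.89 for TRAF1 (late 0.07, early 0.96) and -0.79 for NFKBIA (late 0.00, early 0.79). The files hold no record, other than this RNA, of whether the late wells labelled ACT were stimulated, and 0 of 11826 genes were called between Late ACT and Late CTL, so these values compare the libraries as labelled. Each was called under all 17 alternatives run for it. With Early ACT library 1 left out the 5 values ran from -1.47 to -0.67.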

How the results depend on the processing

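Over the alternatives run, 1187 of the 1249 recomputed log2 fold changes of the 10 genes kept their direction and their side of the threshold, 25 passed where they had not, 13 no longer passed and 24 changed sign. Calls among the 10 genes numbered 7 in every alternative between Late ACT and Early ACT, 6 to 8 between Late CTL and Early CTL, 5 to 8 for early stimulation, 0 for late stimulation and 5 to 6 for the difference between responses. The share of called genes that were higher late moved with the setting. It was 51.3% between Late CTL and Early CTL, 63.3% with upper-quartile factors and 55.2% with RLE factors, and 49.3% between Late ACT and Early ACT, 61.0% with upper-quartile factors and 52.9% with RLE factors. Without a filter on low counts the shares were 61.2% and 57.4%, and with DESeq2, which also tests more genes (17782 in place of 11826), 64.4% and 58.4%. Upper-quartile factors moved the median log2 fold change of all genes to 0.15 in both comparisons, in place of 0.02 and 0.05.

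For the difference between responses 167 genes were called, 305 with DESeq2 and 95 to 546 with a library left out. Of the pathway lists 5 genes were called, 8 with DESeq2 and 5 to 10 with a library left out, and for early stimulation 10, and 6 to 17. Early stimulation called 855 genes, 503 with the compared groups alone and 464 to 1554 with a library left out. Late stimulation called 0 genes, 14 with DESeq2, 5 without a filter on low counts, 10 with the compared groups alone, 2 with upper-quartile factors and 0 to 29 with a library left out; the most was without Early ACT library 1. The cause was not tested.

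No value that changed sign passed a test in either setting. With RLE factors ADAM17 between Late ACT and Early ACT was 0.0067, NFKBIA on late stimulation -0.0021 and NFKBIB between Late CTL and Early CTL 0.015. With upper-quartile factors the same were 0.0785, -0.0039 and 0.1004, and TNF between Late ACT and Early ACT was 0.0199. With DESeq2 NFKBIA was -0.0045 and NFKBIB 0.0064, and with the compared groups alone NFKBIB was 0.0106. Without a filter, between Late CTL and Early CTL, ICAM1 was -0.0096 and TNFAIP6 -0.018. With a library left out, values between Late ACT and Early ACT ran from -0.1944 to 0.0979 for TNF, -0.1393 to 0.0237 for ADAM17 and -0.0224 to 0.3413 for BIRC2. Between Late CTL and Early CTL they ran from -0.039 to 0.0717 for TNFAIP6, -0.0096 to 0.1181 for ADAM17, -0.0576 to 0.1764 for ICAM1, -0.2021 to 0.0692 for NFKBIB and -0.3993 to 0.1017 for TNFAIP2. On late stimulation they ran from -0.0267 to 0.0903 for NFKB2, -0.0432 to 0.0914 for NFKBIA, -0.0633 to 0.0954 for RELB, -0.0355 to 0.0169 for TNFAIP3 and -0.0256 to 0.1597 for TRAF1. RELB ran from -0.1902 to 0.0075 on early stimulation and from -0.0165 to 0.177 in the difference between responses. The log2 ratio of TNF to TRAF1 counts, late minus early in stimulated cells, ran from -0.0166 to 0.1449.

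Samples with the same replicate number did not deviate together: 18 correlations of their deviations from the group means ran from -0.0855 to 0.0968, so the numbers were not taken as pairs. With the replicate number as a block, 114 genes were called in the difference between responses and 727 for early stimulation, and of the 10 genes 5 and 6, NFKB1 being the call lost for early stimulation. RELB, at 174 to 1157 counts per library, and TNFAIP6, at 204 to 1310, are the most shallowly counted of the 10 genes.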
